A study of Mus musculus with 3 samples.

Results

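The 9 listed genes of the complement system, C3, C4b, C1qa, C1qb, C1qc, Cfb, Cd55, Cd59a and C3ar1, were followed in astrocytes made from mouse embryonic stem cells. A gene was measured where the platform annotation gave it at least 1 probe set that names no other gene. This held for 7 of the 9 genes, with 14 probe sets, out of 18194 genes and 34958 such probe sets in all. C3 had no probe set assigned to it in the annotation used and is not analysed here. The probe set assigned to C4b also names C4a, so it is described apart from the others. Each gene took the value of its brightest probe set, and the others are shown beside it.

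The embryonic stem cells, labelled wild type, had formed embryoid bodies for 4 days, passed 5 to 7 days of selection in ITSFn medium, and been kept as neural precursors in FGF2 and a factor labelled EGF2. At 18 passages after the embryoid bodies, the growth factors were withdrawn and 5% fetal bovine serum was given for 5 days. Total RNA of 3 such samples was labelled with biotin and read on Affymetrix mouse arrays of 1 colour, which form 1 group with no contrast. The labels do not state the strain, the number of stem cell lines or whether the samples were separate cultures, so the p-values measure only the spread between these 3 arrays, which may be technical. The question that such a design allows is which complement genes gave a signal above background. The background limit of an array was the 95th percentile of 78 chemosensory receptor genes, which these cells are not known to need, and lay at 3.99, 4.10 and 4.07 log2 units (a signal of 15.9, 17.1 and 16.8). Levels are log2 signals with the SD over the 3 arrays after the ± sign. Probe sets differ in brightness, so levels of different genes are not ranked against each other.

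Complement is a cascade of blood and tissue proteins that marks cells and debris for removal. The classical pathway begins when C1q, built from the products of C1qa, C1qb and C1qc, binds a target and its partner proteases cut C4 and C2. The alternative pathway uses factor B, the product of Cfb, and all routes meet at C3, whose fragments coat targets and, through the receptor C3aR, signal to cells. Membrane proteins hold the cascade in check on the body's own cells, with CD55 speeding the decay of the enzymes that cut C3 and CD59 blocking the membrane attack complex. In the brain C1q comes mainly from microglia, and C1q and C3 take part in the removal of synapses, while astrocytes can make C3, C4 and several regulators.

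Promoter sequences are shown for 4 of the genes, because Cd59a and Cd55 encode the membrane regulators that fell on different sides of the background limit and C1qb and C1qc encode chains of the same protein. RefSeq promoter windows (GRCm38.p6) matched 6 of the 9 genes. Each sequence is the 250 bases before the annotated start, 5′ to 3′ on the gene's strand. Capitals mark matches, on either strand, to a motif searched: GAGGAA (the PU.1 core form), GGGCGG (the GC box), CCAAT (the CCAAT box), TATAAA (the TATA box) and TTCNNNGAA (a STAT-like motif). The windows lie at chr2:104095551-104095800 (plus strand) for Cd59a, chr1:130462745-130462994 (minus strand) for Cd55, chr4:136886201-136886450 (minus strand) for C1qb and chr4:136892915-136893164 (minus strand) for C1qc.
Cd59a: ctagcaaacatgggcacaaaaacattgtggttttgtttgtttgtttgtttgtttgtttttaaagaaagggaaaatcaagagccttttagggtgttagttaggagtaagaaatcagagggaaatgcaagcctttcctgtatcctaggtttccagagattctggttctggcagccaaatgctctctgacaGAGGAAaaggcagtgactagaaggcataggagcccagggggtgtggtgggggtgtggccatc
Cd55: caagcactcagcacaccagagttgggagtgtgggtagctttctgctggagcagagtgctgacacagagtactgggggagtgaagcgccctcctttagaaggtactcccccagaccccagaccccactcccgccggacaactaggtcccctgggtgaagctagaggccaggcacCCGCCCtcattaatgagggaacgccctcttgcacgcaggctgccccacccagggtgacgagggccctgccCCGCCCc
C1qb: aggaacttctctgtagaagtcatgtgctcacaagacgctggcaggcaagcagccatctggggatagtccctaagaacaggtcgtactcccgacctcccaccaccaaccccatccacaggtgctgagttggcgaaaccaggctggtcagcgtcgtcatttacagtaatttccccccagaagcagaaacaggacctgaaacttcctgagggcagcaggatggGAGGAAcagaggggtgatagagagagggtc
C1qc: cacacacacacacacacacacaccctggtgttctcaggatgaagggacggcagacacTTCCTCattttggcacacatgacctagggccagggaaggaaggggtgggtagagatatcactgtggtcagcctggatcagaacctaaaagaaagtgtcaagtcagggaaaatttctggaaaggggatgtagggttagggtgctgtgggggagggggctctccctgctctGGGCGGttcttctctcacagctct

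The Cd59a window had no CpG dinucleotide, where the median of 32851 windows was 6, and 7.87% of windows had as few. Cd55 had 8 CpG, C1qb had 6 and C1qc had 2. GAGGAA, a form of the core sequence bound by the myeloid factor PU.1, occurred once each in the windows of Cd59a, C1qb and C1qc and in 23.3% of all windows. GGGCGG occurred 2 times in Cd55 and once in C1qc, against 32.7% of all windows with a match. No match overlapped another. None of these 4 windows held the CCAAT box, the TATA box or the STAT-like motif, which occurred in 33.8%, 12.4% and 7.02% of all windows. A match is a description of the letters and not a measured binding site.

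Of the 7 measured members, Cd59a alone was above background, and C1qa, C1qb, C1qc, Cfb, C3ar1 and Cd55 were not (limma one-sample test against the limit, one-sided, Benjamini-Hochberg adjusted p below 0.05 over all genes). Among all 18116 genes tested, 58.3% were above background. The median member lay 1.53 log2 units under the limit (-1.53), and the median of all genes was 1.76 above it. The other 6 members were below the limit on each of the 3 arrays, which was true of 29.9% of all genes. By probe sets, 2 of 14 were above background, both of Cd59a, against 52.2% of 34871 probe sets. In these bulk samples fewer cells of a type and less RNA per cell cannot be told apart. A gene that did not pass is not shown to be silent, since the limit, and not zero signal, is what was tested.

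**Figure D1:**
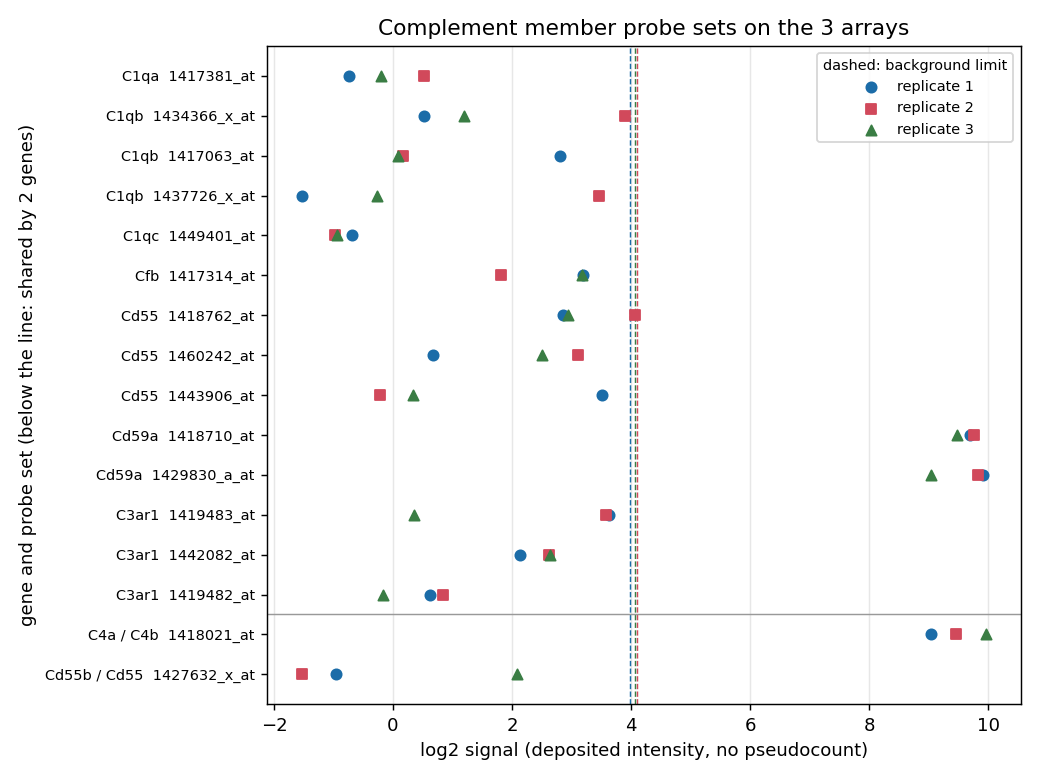
Log2 signal (horizontal axis) of every complement probe set on replicates 1 (circles), 2 (squares) and 3 (triangles), with the background limit of each array as a dashed line; probe sets below the grey line name 2 genes. Both Cd59a probe sets and the one shared by C4a and C4b lie at 9.04 or higher, and each of the others lies left of the limit on each array.

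Cd59a, which encodes the mouse CD59 that stops assembly of the membrane attack complex, gave signals of 833, 867 and 712 on replicates 1, 2 and 3. The level was 9.65 ± 0.15, which is 5.59 log2 units above the limit (adjusted p = 3.89e-05, limma). Its other probe set read 967, 908 and 529, a level of 9.60 ± 0.48 and 5.54 units above the limit (adjusted p = 0.000153, limma over probe sets). Both probe sets were therefore on the same side, and on both replicate 3 was the lowest. Replicate 3 was the array with the highest median deviation over genes above background, at 0.16 log2 units. Less that array median, the brighter probe set deviated by 0.24, 0.10 and -0.33 units on the 3 arrays and the other by 0.50, 0.21 and -0.71. The SD of the other probe set was as large as or larger than that of 93.0% of 924 probe sets of like level (within 0.25 units), against 29.8% of 909 for the brighter one. Cd59b, the neighbouring copy of the gene, had no single-gene probe set and is not analysed here, and whether Cd59a probes bind its transcript was not tested.

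Cd55, which encodes decay-accelerating factor, was not above background on any of its 3 probe sets. The brightest gave 7.29, 16.7 and 7.66 on the 3 arrays, a level of 3.29 ± 0.67 and -0.76 log2 units from the limit. Replicate 2 came closest to its limit, at 4.07 log2 units against 4.10. The second probe set read 1.58, 8.66 and 5.66 and the third 11.4, 0.861 and 1.26, so replicate 2 was highest on 2 probe sets and replicate 1 on the other. A further probe set that names both Cd55b and Cd55 read 0.513, 0.348 and 4.25 and was below the limit on each array.

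The genes of the 3 C1q chains were all under the limit. C1qa gave 0.598, 1.44 and 0.868, a level of -0.14 ± 0.63, and C1qc gave 0.623, 0.507 and 0.521, a level of -0.87 ± 0.16, each on its single probe set. They lay at -4.19 and -4.92 log2 units from the limit. C1qb had 3 probe sets. The brightest read 1.43, 14.9 and 2.30, a level of 1.87 ± 1.79 and -2.18 units from the limit. A second probe set, which like the brightest carries the suffix for probes that can bind several transcripts, read 0.345, 11.02 and 0.828, also highest on replicate 2. The third, without that suffix, read 6.98, 1.13 and 1.06 and was highest on replicate 1. No C1qb value reached the limit of its array, so these differences between arrays lie within the background range.

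Cfb, the protease subunit of the alternative pathway C3 convertase, gave 9.11, 3.52 and 9.02 on its single probe set. Its level was 2.73 ± 0.79, or -1.33 log2 units from the limit, and replicate 2 was the low array. C3ar1, which encodes the receptor for the fragment C3a, gave 12.4, 12.002 and 1.27 on its brightest probe set. The level was 2.52 ± 1.88 and -1.53 units from the limit, with the lowest value on replicate 3. Without replicate 3 the distance of C3ar1 was -0.43, and the gene was still not above background. Its second probe set read 4.38, 6.18 and 6.24, and the third read 1.55, 1.78 and 0.890. All 9 C3ar1 values were thus under the limit, so the differences between arrays lie within the background range.

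The fourth complement component is represented by 1 probe set that names both C4a and C4b. It gave 525, 705 and 1003 on replicates 1, 2 and 3, a level of 9.49 ± 0.47. With probe sets of several genes kept in the fit, it was 5.44 log2 units above the limit (adjusted p = 0.000129, limma), where 52.3% of 35791 probe sets were above background. The value cannot be assigned to either gene alone. The RefSeq gene table lists C4b as protein coding and C4a as a transcribed pseudogene in the reference strain. Replicate 3 was 1.91-fold over replicate 1, and the SD was as large as or larger than that of 91.9% of 1009 single-gene probe sets of like level. Less the array medians the deviations were -0.27, -0.04 and 0.32, so replicate 3 was the high array here and the low array for Cd59a. With 3 arrays of 1 group this difference was not tested.

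The other genes of the pathway gave a wider picture of where a signal was seen. Of 48 measured on a list of 55, 19 were above background (39.6%, against 58.3% of all genes), and their median was -0.54 log2 units from the limit. Listed genes without a single-gene probe set in the annotation are not analysed here.

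Among classical and lectin initiation genes 3 of 12 were above background (25%, against 58.3% of all genes). C1ra and C1s1, which encode the proteases that C1q activates, were at 6.72 ± 0.35 and 6.42 ± 0.36 (adjusted p = 0.000328 and 0.000406, limma). C1ra read 89.7, 94.0 and 140 on the 3 arrays and C1s1 65.8, 109 and 88.5, so all 6 values were above the limits, where the C1q chain genes had none. The only C1s1 probe set carries a suffix (_s_at) for probes that can bind several transcripts, so C1s1 has no value without such probe sets. The lectin pathway protease gene Masp1 was at 6.08 ± 0.10, with 2 of 5 probe sets above background. Masp1 was no longer above background with the median of its probe sets (0.48 above the limit, adjusted p = 0.0651) or when _s_at and _x_at probe sets were dropped (0.13, adjusted p = 0.351, limma). C2, the protease cut after C4, was at 2.72 ± 1.22, with 17.4 on replicate 3 against 3.59 and 4.59 on the others. The mannose-binding lectin genes Mbl1 and Mbl2 were at 3.61 ± 0.25 and 1.52 ± 1.92, and neither passed.

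Apart from the member Cfb, which did not pass, both measured genes of the alternative pathway and its downstream component C5 were above background. Hc, which encodes C5, gave 556, 575 and 505, a level of 9.09 ± 0.10 (adjusted p = 3.93e-05, limma). Cfp, which encodes properdin, the protein that stabilises the alternative convertase, gave 30.1, 51.1 and 98.6, a level of 5.74 ± 0.86 (adjusted p = 0.0124, limma), on 1 of its 2 probe sets. With the median of its probe sets Cfp was 0.64 above the limit and did not pass (adjusted p = 0.19, limma). Of 5 terminal pathway genes 1 passed (20%, against 58.3% of all genes), C8g at 5.52 ± 0.22 (adjusted p = 0.000847, limma). C8g encodes the lipocalin-like chain of C8. The genes of its partner chains, C8a and C8b, were at 0.78 ± 0.96 and 1.82 ± 1.03 and C6 was at 1.88 ± 0.36, none of them above background.

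**Figure D2:**
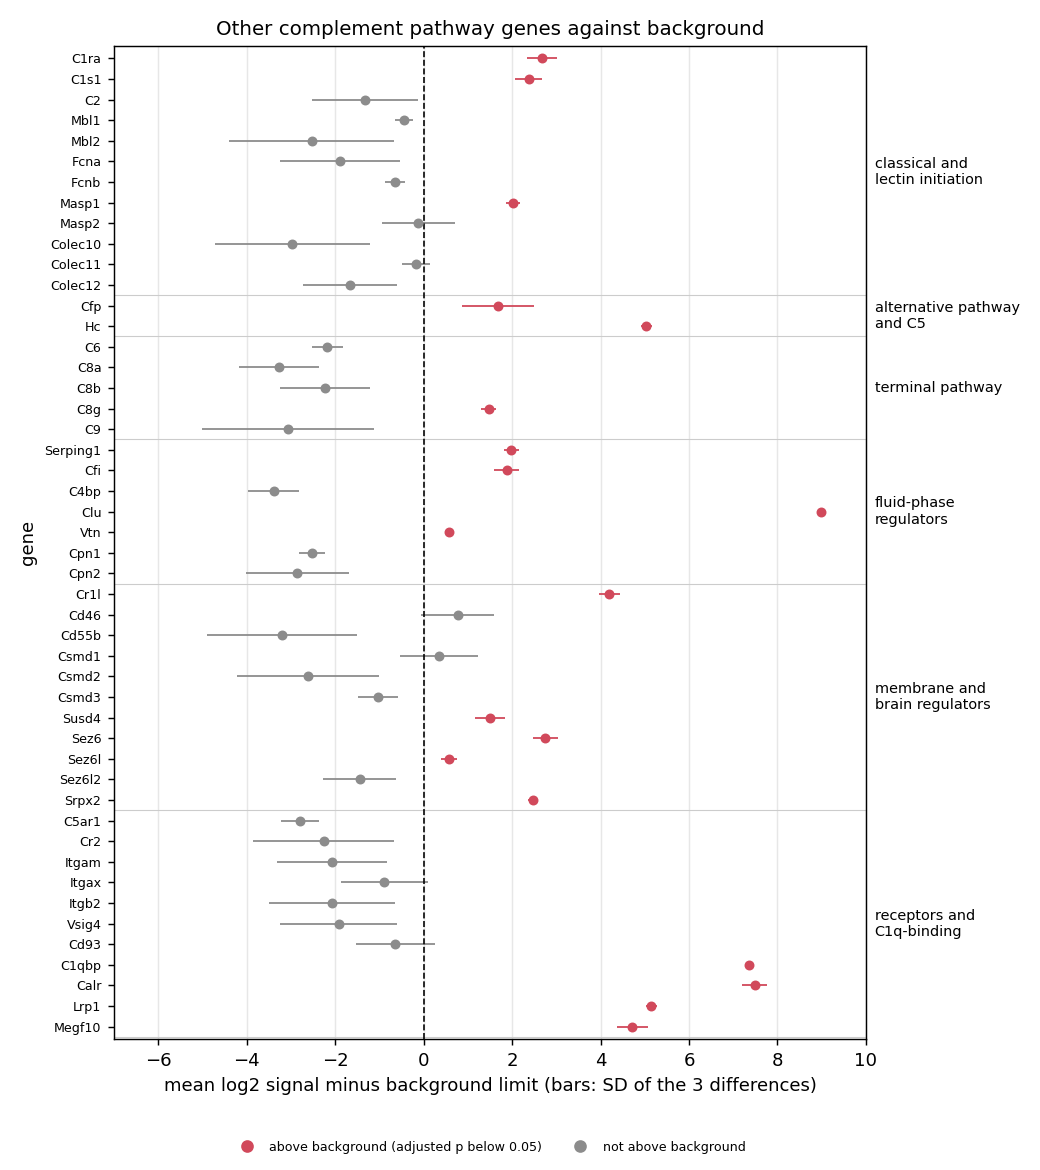
Mean log2 signal minus the background limit for the 48 other complement genes measured, by role, with the SD of the 3 differences as bars; red points were above background and grey points were not. Red points number 3 of 12 initiation genes, both genes shown of the alternative pathway and C5, and 1 of 5 terminal genes. They also number 4 of 7 fluid-phase regulators, 5 of 11 membrane and brain regulators and 4 of 11 receptors and C1q-binding proteins. Of all genes, 58.3% were above background. Cfb is a member and is not shown here.

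Of 7 fluid-phase regulator genes 4 were above background (57.1%, close to the 58.3% of all genes). Clu, which encodes clusterin, an inhibitor of the membrane attack complex with other chaperone roles, gave 8225, 8051 and 8861, a level of 13.03 ± 0.07 on 4 of 4 probe sets (adjusted p = 3.85e-05, limma). Serping1, the inhibitor of the C1 proteases, was at 6.04 ± 0.16, and Cfi, the protease that inactivates C3b and C4b, was at 5.93 ± 0.24. Vtn, which encodes vitronectin, was close to the limit at 4.64 ± 0.08 (adjusted p = 0.0108, limma). It did not pass without replicate 1 (0.58 above the limit, adjusted p = 0.0548) or without replicate 2 (0.62, adjusted p = 0.0725), and with the median of its probe sets it was at -0.26. C4bp, Cpn1 and Cpn2, genes of plasma proteins that act on C4b and on the anaphylatoxins, were at 0.66 ± 0.56, 1.53 ± 0.27 and 1.20 ± 1.22 and did not pass.

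Of 11 other membrane and brain regulator genes 5 were above background (45.5%, against 58.3% of all genes). Cr1l, which encodes Crry, the rodent membrane regulator that shares its C3 and C4 targets with CD55, gave 339, 323 and 260, a level of 8.25 ± 0.20 (adjusted p = 6.43e-05, limma). It passed on 1 of its 3 probe sets and not with their median (0.73 above the limit, adjusted p = 0.153). Sez6 was at 6.80 ± 0.30 and Srpx2, whose product binds C1q, at 6.53 ± 0.17, while Susd4 was at 5.55 ± 0.37. Sez6l was near the limit at 4.63 ± 0.24 (adjusted p = 0.0176, limma). It did not pass without replicate 2 (0.49, adjusted p = 0.126), without replicate 3 (0.56, adjusted p = 0.0583) or with the median of its probe sets (0.19, adjusted p = 0.246). Cd46, a cofactor for cleavage of C3b, gave 39.0, 38.9 and 14.9 and did not pass (adjusted p = 0.0998, limma), but without replicate 3 it was 1.24 above the limit and passed (adjusted p = 0.00619). Csmd1 gave 27.1, 32.4 and 10.6 on the 3 arrays, and 0 of its 4 probe sets passed. Without replicate 3 it was 0.85 above the limit and passed (adjusted p = 0.0142, limma). With the median of its probe sets it was at -1.58. Cd55b, the copy of Cd55, was at 0.85 ± 1.63.

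Genes of complement receptors and C1q-binding proteins fell on both sides of the limit. Of 11 measured 4 were above background (36.4%, against 58.3% of all genes). These were C1qbp at 11.40 ± 0.10, Calr, which encodes calreticulin, at 11.54 ± 0.30, Lrp1 at 9.20 ± 0.19 and Megf10 at 8.77 ± 0.39. Lrp1 passed on 1 of its 2 probe sets, and with their median it was 2.83 above the limit and still passed. Megf10 encodes an engulfment receptor of astrocytes that can bind C1q, and gave 327, 456 and 560 on the 3 arrays. C5ar1, the C5a receptor gene, was at 1.26 ± 0.47. Cr2 was at 1.79 ± 1.66 and Itgam, a chain of complement receptor 3, at 1.98 ± 1.19. None of the 7 genes that did not pass was above the limit on any array.

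The labelled cell type was set beside markers, from lists chosen with earlier results of these data known. No list of neural precursor markers was among them, so whether precursors remained was not tested. All 10 astrocyte markers were above background, where 58.3% of all genes were. Gfap was at 12.63 ± 0.12, Aqp4 at 11.87 ± 0.10, S100b at 9.57 ± 0.19, Slc1a3 at 10.95 ± 0.25 and Slc1a2 at 9.57 ± 0.18. Taking each gene's median probe set instead, 8 of 10 were above background, and Slc1a2 was 0.20 above the limit and not among them. Microglia are the usual brain source of C1q and C3aR transcripts, so their markers stand beside those members. Of 19 microglia and blood markers 1 was above background (5.26%, against 58.3% of all genes). This was the receptor gene Csf1r at 5.34 ± 0.18 (adjusted p = 0.00177, limma), by 1 of 3 probe sets. The means of 5 of the 19, Csf1r among them, lay above the limit. Taking the median probe set, none passed, and Csf1r was 0.35 above the limit (adjusted p = 0.211, limma). Aif1, Itgam, Cx3cr1 and Ptprc were at 1.79 ± 1.62, 1.98 ± 1.19, 3.08 ± 0.18 and 1.56 ± 2.18. The summed signal of the 19 markers ranged from 201.2 to 239 over the arrays. Below the limit on each array were 10 of the 19, where 29.9% of all genes were. No marker had a signal of 0, as no deposited value did.

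**Figure D3:**
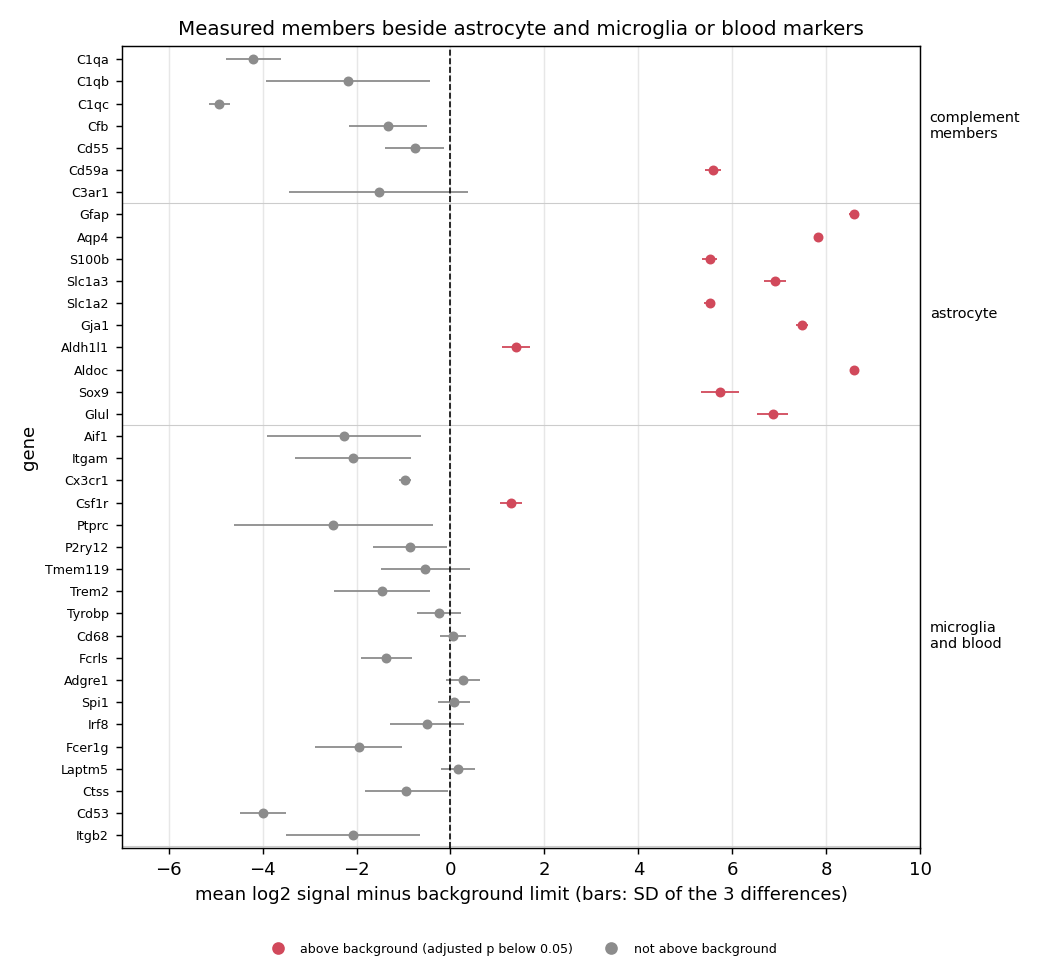
Mean log2 signal minus the background limit for the 7 measured members, 10 astrocyte markers and 19 microglia or blood markers, with the SD of the 3 differences as bars; red points were above background and grey points were not. Cd59a, at 5.59, lies right of the limit, as do the astrocyte markers. The other measured members, C1qa, C1qb, C1qc, Cfb, Cd55 and C3ar1, lie left of it. Csf1r is the 1 red point among the microglia and blood markers.

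Complement genes of astrocytes are known to respond to inflammatory cytokines, so the genes of these cytokines, their receptors and the factors downstream were set beside the members. None of 7 cytokine genes was above background (limma, and 0 at an unadjusted p below 0.05), where 58.3% of all genes were. Il1a, Il1b and Tnf were at 1.49 ± 1.10, 3.69 ± 0.63 and 1.48 ± 0.40, and Il1b was above the limit on replicate 3 alone, with a signal of 21.1. Of 10 receptor genes 8 were above background (80%, against 58.3% of all genes). Il6st, which encodes the shared receptor gp130, was at 12.03 ± 0.26, Tnfrsf1a at 9.16 ± 0.30, Ifngr1 at 8.05 ± 0.21, Ifngr2 at 6.32 ± 0.47 and Il6ra at 5.18 ± 0.21. Il1rap, the accessory chain, was at 7.00 ± 0.11 by 2 of 5 probe sets, and did not pass with their median (0.16 above the limit, adjusted p = 0.371, limma). Il1r1, the signalling receptor for interleukin 1, was at 2.01 ± 1.45, and Tnfrsf1b at 3.76 ± 1.45, with 4.37 on replicate 3 against 19.0 and 29.9 on the others.

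All 10 measured signalling factor genes were above background, where 58.3% of all genes were. Rela, a subunit of NF-kB, was at 9.24 ± 0.31 and Nfkb2 at 5.85 ± 0.45, while the inhibitor gene Nfkbia was at 10.84 ± 0.08. Stat3 was at 10.41 ± 0.22 and the kinase genes Jak1 and Jak2 at 9.61 ± 0.19 and 9.03 ± 0.36. Counted together, 18 of 27 genes of the cytokines, receptors and factors were above background (66.7%, against 58.3% of all genes).

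**Figure D4:**
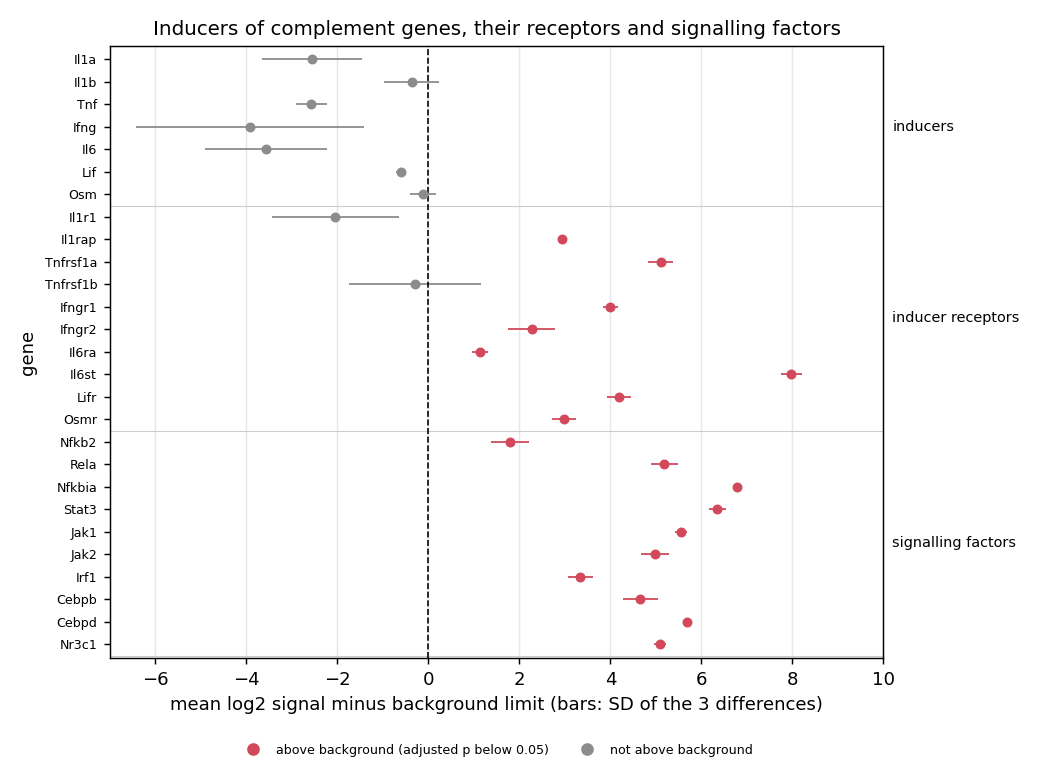
Mean log2 signal minus the background limit for genes of complement-inducing cytokines, their receptors and signalling factors, with the SD of the 3 differences as bars; red points were above background and grey points were not. All 7 cytokine genes are grey, 8 of 10 receptor genes and all 10 signalling factor genes are red. Of all genes, 58.3% were above background.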

How the data were processed

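For each array the authors deposited an intensity, linear and not logged, for each of 45101 probe sets. Per the submitters' processing notes the authors used GCOS 1.4, and the algorithm settings and scaling are not given in the sources used. The platform annotation gave 34958 probe sets 1 gene and 932 several, and 9211 are unnamed here. Symbols were checked against the RefSeq table of GRCm38.p6, which changed 0. Intensities were log2-transformed without a pseudocount, and each gene took its brightest probe set. Each gene's log2 signal less the limit of its array entered limma 3.58.1 under R 4.3.3 (one-sample, one-sided, eBayes, Benjamini-Hochberg over 18116 genes, and again over probe sets). The procedure was tested on simulated data. Array number limits the precision, and the medians of signal were 20.02, 23.3 and 19.4. The members and gene lists were chosen with earlier results of these data known. Text names all members, and in each pathway list the genes that passed (the first 6 in list order where more did) and the first 3 that did not, likewise the first 5 cell type markers, with any microglia or blood marker that passed.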

Additional observations from a re-analysis of the deposited data

Results flagged for a closer look

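Signal was found in probe sets that the gene-level comparison leaves out because they name several genes. The probe set shared by C4a and C4b had a mean log2 signal of 9.49 and was above the limit set by the chemosensory receptor genes on each of the 3 arrays. The probe set shared by C1rb and C1ra had a mean of 4.87, with 22.0, 30.4 and 37.1 on the 3 arrays, 0.81 log2 units above the limit (adjusted p = 0.0194, limma). The part of each gene in these signals was not tested.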

How the results depend on the processing

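Of the 13 alternatives fixed with the design, 12 could change a value, and these left each of the 7 measured members on its side of the threshold wherever it was tested. The alternatives were the 90th or 99th percentile or olfactory genes alone for the limit, the median probe set, no _s_at or _x_at probe sets, quantile normalization, a pseudocount of 16, a filter at the receptor median, limma-trend and each replicate left out. The other, centring arrays on their median, moves a signal and its limit alike and tests nothing. The filter removed 12 named genes, C1qa and C1qc among them, and dropping _s_at and _x_at probe sets removed 2, C1s1 and Aif1. Without each replicate in turn the count of genes above background ran from 10237 to 10460, that of other complement genes from 17 to 20, and the counts of members and of member probe sets stayed at 1 and 2. Of 67 named genes, 53 were run under every alternative and 43 of these kept their side, and the other 14 kept it where they were run. When each gene took its median probe set, the count of microglia and blood markers was 0, since Csf1r was 0.35 above the limit (adjusted p = 0.211, limma), and Vtn turned to -0.26; genes with 1 bright probe set among several lose level by that rule. Cd46 also passed with the 90th percentile, the pseudocount and limma-trend, and Vtn and Sez6l did not pass with the 99th percentile. Keeping probe sets of several genes, an alternative chosen after seeing the data, gave 3 of 16 member probe sets above background in place of 2 of 14. No paired analysis was possible because the study has 1 group. Without probe-level files, saturation and non-specific binding could not be examined, and a gene near the limit can go unseen.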

Other observations

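Markers of other cells that make complement proteins were mostly not above background, where 58.3% of all genes were. Of 3 hepatocyte markers measured 1 was, the albumin gene Alb at 4.96 ± 0.20 (signals of 26.5, 34.1 and 33.5), while Ttr and Apoa1 were at 2.70 ± 0.94 and 1.63 ± 1.70. Of 6 endothelial markers 1 was, Kdr at 6.59 ± 0.46, and of 6 fibroblast markers 0 were (limma, and 0 at an unadjusted p below 0.05). These lists hold few genes, and the 2 genes above background were named after their values were seen.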
